A study of Mus musculus with 8 samples.

Results

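Collagens are the trimeric structural proteins of the extracellular matrix, and the genes of their chains were compared here between livers of ovariectomized (OVX) mice on 2 diets. All genes whose symbol is Col, a type number, the letter a and a chain number were taken, as far as the array annotation names that gene alone for a row of the value table. This gave 44 collagen genes of 19938 genes tested, of which 11 encode fibrillar chains, 6 encode chains of the basement membrane type IV and 27 encode other collagens. Where a gene had several rows, the row with the highest mean over the 8 arrays stood for it.

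The mice were female, of the strain written C57B1/6J in the sample labels, and were ovariectomized at 7 weeks of age. From shortly after surgery 4 of them had a high fat diet (HFD, labelled control diet) and 4 had the same diet with white button mushroom powder (HFD+WBM) for 3 months. Every mouse on the arrays was ovariectomized and on a high fat diet, food intake was matched between the diets by pair feeding, and neither sham-operated mice nor mice on a low fat diet were analysed here. Whole liver RNA of each mouse was hybridized to an Affymetrix Mouse Gene 1.0 ST array of its own, and all values are on the log2 scale of the authors' IterPLIER summary. Whole liver holds many cell types, so that fewer cells of a type and less RNA per cell cannot be told apart. Albumin (Alb), the defining product of hepatocytes, had 13.96 to 14.22 (log2 value) in the 8 livers, close to the highest value on any array, 14.78.

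Fibrillar collagens, above all types I and III, form the banded fibrils that accumulate in liver scars. Type IV collagen makes the sheet-like network of basement membranes, and in healthy liver lies thinly in the space between sinusoids and hepatocytes. In fibrosis, hepatic stellate cells that turn into myofibroblasts are the main source of types I and III, while endothelial and stellate cells also make type IV. The remaining collagens decorate fibrils, form beaded filaments around cells, span plasma membranes or carry fragments with activity of their own, such as endostatin from type XVIII.

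In OVX mice fed with HFD+WBM, the genes of type I and type III collagen and of the ubiquitous type IV chains were lower than in OVX mice fed with HFD. Col1a1 was 1.96-fold lower, Col3a1 1.77-fold, Col1a2 1.64-fold, Col4a2 1.62-fold, Col15a1 1.56-fold and Col4a1 1.53-fold. Col5a2 (1.60-fold), Col25a1 (1.56-fold), Col23a1 (1.52-fold), Col12a1 (1.40-fold) and Col24a1 (1.30-fold) were higher. These 11 genes passed p under 0.05 before adjustment in limma, and the other 33 collagen genes did not. The 6 lower genes are 13.6% of the collagens, where 6.9% of all genes tested were lower, and the 5 higher genes are 11.4%, where 4.85% of all genes were higher. No collagen gene passed p under 0.05 together with a 2-fold change, which 0.762% of all genes did, and Col1a1 lay just under 2-fold. None had an adjusted p under 0.05 (smallest 0.37, limma with Benjamini-Hochberg adjustment), and neither did any other gene (0 of 19938, 0%). When limma's prior variance was let to vary with signal, 139 genes (0.697%) had an adjusted p under 0.05, and no collagen was among them.

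Among the arrays, HFD replicate 3 stood farthest from the rest, its genes departing by an SD of 0.68 from the average of the remaining arrays (0.38 to 0.50 for each of the other 7). The median over all rows was 7.04 to 7.22 on the 8 arrays, and 2 arrays correlated at 0.920 to 0.973. Without HFD replicate 3, the lower collagens were 4 (Col1a1, Col1a2, Col4a2 and Col15a1), since Col3a1 (log2 fold change -0.78) and Col4a1 (-0.56) no longer passed. The higher collagens without it were 6, with Col5a3 and Col6a5 added and Col24a1 lost. Shares of all genes lower or higher without this array are not given here. As no detection calls were used, the 1027 genes of olfactory receptors, a family little used in liver, served as a guide to dim signal. The 95th percentile of their mean values was 7.16, and 33 of the 44 collagens lay above it. A log2 value is the signal of that gene's own probes, so that the order of genes by value is not an order of transcript number.

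The promoters of Col1a2 and Col3a1 are shown because these fibrillar genes were lower together and have a sequence among the RefSeq promoters of GRCm38.p6, where 35 of the 44 collagens matched. Each runs 5′ to 3′ over the 250 bases before the annotated transcript start. Capitals mark matches on either strand to 3 motifs, which are the TATA box with the letters TATAAA, the CCAAT box named by its letters, and the GC box that Sp1 binds, with the letters GGGCGG.
Col1a2, chr6:4505368-4505617, + strand: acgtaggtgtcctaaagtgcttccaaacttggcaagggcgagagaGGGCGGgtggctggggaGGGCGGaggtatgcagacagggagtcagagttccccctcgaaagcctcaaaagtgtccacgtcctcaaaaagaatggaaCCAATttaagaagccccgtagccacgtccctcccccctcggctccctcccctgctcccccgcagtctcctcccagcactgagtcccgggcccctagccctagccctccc
Col3a1, chr1:45311288-45311537, + strand: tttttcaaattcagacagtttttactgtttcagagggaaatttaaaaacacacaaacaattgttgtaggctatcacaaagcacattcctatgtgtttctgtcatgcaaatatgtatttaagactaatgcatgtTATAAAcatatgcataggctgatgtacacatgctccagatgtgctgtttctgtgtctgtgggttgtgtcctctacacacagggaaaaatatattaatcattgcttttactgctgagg

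The promoters differ in make-up. That of Col1a2 is 62% G and C with 2 GC boxes (starting 205 and 188 bases before the start) and a CCAAT box (109 bases before). That of Col3a1 is 35.2% G and C, with a TATA box starting 117 bases before the start and no match to the other letters. Over the 38 collagen promoter sequences, 57.9% hold a GC box, 34.2% a CCAAT box and 13.2% a TATA box, while over all 32851 promoter sequences of the same length the shares were 32.7%, 33.8% and 12.4%. The TGF beta-related Smad box GTCTAGAC was in none of the collagen sequences and in 0.167% of all, and the AP-1 letters TGANTCA were in 2.63% and 6.75%. A match is a description of letters, not evidence of a bound site.

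Type I collagen, the main fibril protein of scar tissue, is built from the chains of Col1a1 and Col1a2. Col1a1 had log2 values of 7.63, 7.27, 7.83 and 8.60 in HFD replicates 1 to 4, and of 7.44, 6.80, 6.39 and 6.81 in HFD+WBM replicates 1 to 4. HFD replicate 4 was the highest and HFD+WBM replicate 3 the lowest, and the groups overlapped through HFD+WBM replicate 1, which lay above HFD replicate 2. The means were 7.83 ± 0.56 (SD, n = 4) and 6.86 ± 0.43 (SD, n = 4), which is -0.97 as a log2 fold change (standard error 0.31, p = 0.011, adjusted p = 0.37 in limma) with an exact permutation p of 0.057, where 4 mice against 4 cannot give less than 0.029 (two-sided). With any single mouse left out it still passed p under 0.05, and ranged from -1.17 (HFD+WBM replicate 1 left out) to -0.72 (HFD replicate 4 left out).
Col1a2 had log2 values of 8.71, 8.45, 8.90 and 9.60 in the HFD mice and of 8.43, 8.21, 7.91 and 8.25 in the HFD+WBM mice. Every HFD+WBM mouse lay below every HFD mouse, with 8.43 against 8.45 at the closest. The means were 8.91 ± 0.50 and 8.20 ± 0.22 (SD, n = 4 each), which is -0.72 as a log2 fold change (standard error 0.25, p = 0.017 in limma, exact permutation p = 0.029). Without HFD replicate 4 it was -0.49 and still passed.

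Type III collagen, a trimer of Col3a1 chains that joins type I in the same fibrils, had log2 values of 8.55, 8.44, 8.96 and 9.41 with HFD and of 8.56, 7.98, 7.14 and 8.41 with HFD+WBM. HFD+WBM replicate 1 lay between the HFD mice, while the other 3 HFD+WBM mice lay below all of them. The log2 fold change was -0.82 (standard error 0.33, p = 0.033 in limma, exact permutation p = 0.086). It did not pass without HFD replicate 3 (-0.78) or 4 (-0.63), or without HFD+WBM replicate 2 (-0.81) or 3 (-0.53).

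Type V collagen nucleates type I fibrils and limits their width, and of its 3 chains 1 was higher and none was lower. Col5a2 had log2 values of 7.05, 6.41, 6.90 and 6.58 with HFD and of 7.54, 7.53, 7.30 and 7.28 with HFD+WBM. Every HFD+WBM mouse lay above every HFD mouse (log2 fold change 0.68, standard error 0.18, p = 0.0038 in limma, exact permutation p = 0.029), the smallest p among the collagens. Its mean over all arrays, 7.08, was within the range of olfactory receptor genes. The partner chain Col5a1 had 7.89, 7.86, 8.55 and 7.99 with HFD and 8.08, 7.38, 8.48 and 7.77 with HFD+WBM, so that the groups overlapped throughout (-0.15, standard error 0.26). Col5a3, a chain with narrower tissue use, had 10.17, 10.01, 10.46 and 10.02 with HFD and 10.55, 10.60, 10.35 and 10.30 with HFD+WBM, with HFD replicate 3 within the HFD+WBM range (0.29, standard error 0.16, exact permutation p = 0.086).
Whether partner chains changed unequally was tested on 11 pairs of chains known to assemble together, as the difference of the chains' log2 values in each mouse. For type V, the change of Col5a2 exceeded that of Col5a1 by 0.82, with an exact permutation p of 0.057 (0.47 adjusted over the 11 pairs), and the groups overlapped. For type I the change of Col1a2 exceeded that of Col1a1 by 0.26 (exact p = 0.143), and for the type IV pair Col4a1 and Col4a2 the difference was -0.08 (exact p = 0.686). No pair passed after adjustment, and with 4 mice a diet none of the 11 could have reached an adjusted p under 0.05 by itself.

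The other fibrillar chains are those of cartilage and of minor fibrils. Col24a1, a minor fibrillar chain known from bone and cornea, had log2 values of 7.67, 8.0, 7.70 and 7.82 with HFD and of 8.26, 8.45, 8.05 and 7.93 with HFD+WBM. HFD replicate 2 lay above HFD+WBM replicate 4 (log2 fold change 0.38, standard error 0.16, p = 0.045 in limma, exact permutation p = 0.057), and the call was lost when any of 5 mice was left out. Col2a1, the cartilage collagen, Col27a1, Col11a1 and Col11a2 did not pass, with estimates from 0.01 (Col2a1) to 0.35 (Col11a1). Over the 11 fibrillar genes, 3 were lower (27.3%, against 6.9% of all genes), 2 were higher (18.2%, against 4.85%) and 6 did not pass. Their median log2 fold change was 0.02 (0.20 without HFD replicate 1), against 0.01 over all genes tested.

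**Figure D1:**
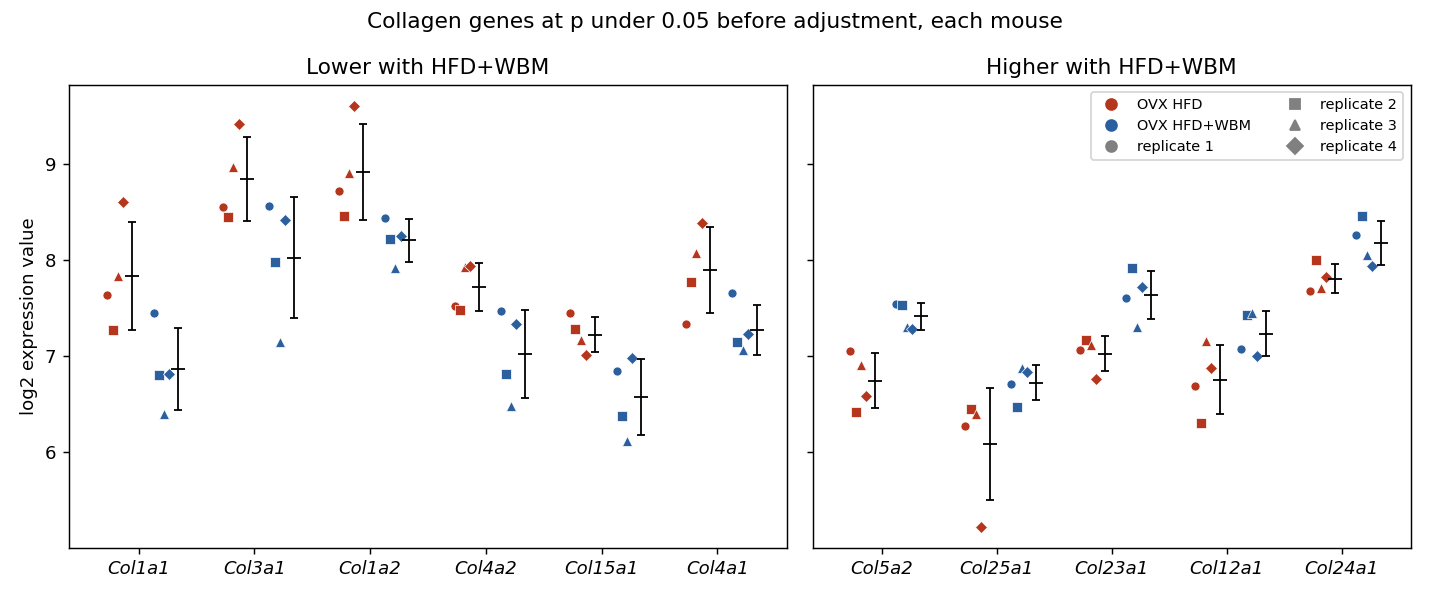
Log2 expression values of the 11 collagen genes with p under 0.05 before adjustment, for each OVX mouse fed with HFD (red) or HFD+WBM (blue), with a marker shape per replicate number with means and SD (4 mice) drawn to the side. HFD replicate 4 (red diamonds) is the highest point for Col1a1, Col1a2, Col3a1, Col4a1 and Col4a2, HFD+WBM replicate 3 (blue triangles) is the lowest for all 6 genes on the left, and the groups do not overlap for Col1a2, Col4a2, Col15a1, Col5a2, Col23a1 and Col25a1.

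In the basement membrane class, the genes of the ubiquitous chains were lower and those of the tissue-restricted chains did not pass. Col4a2 had log2 values of 7.52, 7.48, 7.92 and 7.93 with HFD and of 7.46, 6.81, 6.48 and 7.33 with HFD+WBM. Every HFD+WBM mouse lay below every HFD mouse, with 7.46 against 7.48 at the closest (log2 fold change -0.69, standard error 0.24, p = 0.017 in limma, exact permutation p = 0.029). Col4a1 had 7.33, 7.77, 8.07 and 8.38 with HFD and 7.65, 7.14, 7.06 and 7.23 with HFD+WBM, and HFD replicate 1 lay among the HFD+WBM mice. Its log2 fold change was -0.62 (standard error 0.24, p = 0.028 in limma, exact permutation p = 0.057) and -0.80 without HFD replicate 1. The call was lost without HFD replicate 3 (-0.56) or 4 (-0.45), or without HFD+WBM replicate 2 (-0.57), 3 (-0.55) or 4 (-0.61).
Col4a1 and Col4a2 lie head to head in the genome, on opposite strands of chromosome 8 of GRCm38.p6. The promoter sequences have their starts at 11312826 (Col4a1) and 11312805 (Col4a2), and transcripts from these starts overlap by 22 bases. The annotated Col4a1 gene extends further, to 11312889, so that the genes overlap by more. The chains of the kidney, lung and inner ear network, Col4a3 (0.34, standard error 0.22), Col4a4 (0.48, standard error 0.44) and Col4a5 (-0.12, standard error 0.26), and Col4a6 (-0.13, standard error 0.22) did not pass. Over the 6 genes, 2 were lower (33.3%, against 6.9% of all genes), none was higher (4.85% of all genes were) and the median log2 fold change was -0.13.

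Among the other 27 collagens, 1 was lower (3.7%, against 6.9% of all genes) and 3 were higher (11.1%, against 4.85%). The remaining 23 did not pass, and the median log2 fold change of the class was 0.23. Above 0 lay 20 of the 27 estimates, against 10110 of 19938 over all genes tested. The lower gene was Col15a1, whose product is a proteoglycan-like collagen of vascular basement membranes. It had log2 values of 7.44, 7.28, 7.16 and 7.01 with HFD and of 6.84, 6.37, 6.11 and 6.98 with HFD+WBM. Every HFD+WBM mouse lay below every HFD mouse, with 6.98 against 7.01 at the closest (log2 fold change -0.65, standard error 0.21, p = 0.014 in limma, exact permutation p = 0.029), at a mean signal of 6.90 that was within the range of olfactory receptor genes. Col18a1, the other collagen of this kind and the precursor of endostatin, is made by hepatocytes and had the highest signal of all collagens here. Its values were 11.48, 11.60, 11.55 and 11.74 with HFD and 11.62, 11.28, 11.74 and 11.59 with HFD+WBM, and the groups overlapped throughout (-0.04, standard error 0.15).

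The type VI chains, which form beaded filaments close to cells, did not pass. Col6a3 had log2 values of 6.85, 6.57, 6.71 and 7.30 with HFD and of 6.53, 6.46, 5.99 and 6.64 with HFD+WBM, with HFD+WBM replicate 4 above HFD replicate 2 (log2 fold change -0.45, standard error 0.21, p = 0.057 in limma, exact permutation p = 0.057). Col6a1 had 7.83, 8.13, 8.03 and 8.34 with HFD and 8.44, 7.84, 7.51 and 8.22 with HFD+WBM, and the groups overlapped throughout (-0.08, standard error 0.22). Col6a2 had 7.46, 7.83, 7.36 and 8.15 with HFD and 7.79, 7.43, 7.39 and 7.33 with HFD+WBM, with overlap as well (-0.21, standard error 0.21). Col6a4, Col6a5 and Col6a6 had estimates of 0.02, 0.28 and 0.17. Col6a5 and Col6a6 have a second row each, with estimates of -0.01 (standard error 0.23) at a mean of 5.24, far below the 10.96 of the row used for Col6a5, and 0.09 (standard error 0.20).

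Of the 9 fibril-associated collagens, which sit on the surface of fibrils, Col12a1 alone passed and was higher (11.1%, where 4.85% of all genes were higher). Its log2 values were 6.68, 6.30, 7.15 and 6.87 with HFD and 7.07, 7.42, 7.44 and 7.00 with HFD+WBM. HFD replicate 3 lay within the HFD+WBM range (log2 fold change 0.48, standard error 0.21, p = 0.045 in limma, exact permutation p = 0.086), and the call was lost without any of 6 of the mice. The mean signal of Col12a1, 6.99, was within the range of olfactory receptor genes. Col14a1, a fibril-associated collagen that stellate cells make, had 9.86, 10.70, 10.66 and 10.88 with HFD and 10.47, 10.09, 9.78 and 10.12 with HFD+WBM. HFD replicate 1 lay near the bottom of the HFD+WBM mice, and the other 3 HFD mice above all of them (-0.41, standard error 0.25, exact permutation p = 0.200). Without HFD replicate 1 it was -0.64 and passed. Col9a1, Col9a2, Col9a3, Col16a1, Col19a1, Col20a1 and Col22a1 had estimates from 0.15 to 0.35.

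Of the 4 transmembrane collagens, Col23a1 and Col25a1 were higher, which is 50% of a very small list, where 4.85% of all genes tested were higher. Col23a1 had log2 values of 7.06, 7.16, 7.11 and 6.76 with HFD and of 7.60, 7.91, 7.30 and 7.71 with HFD+WBM, so that every HFD+WBM mouse lay above every HFD mouse (log2 fold change 0.61, standard error 0.17, p = 0.0063 in limma, exact permutation p = 0.029). Col25a1, known from neurons, had 6.27, 6.44, 6.39 and 5.22 with HFD and 6.71, 6.47, 6.87 and 6.83 with HFD+WBM. The groups did not overlap, but HFD replicate 4 lay far below the other 3 HFD mice, and without it the log2 fold change was 0.35 in place of 0.64 (standard error 0.27, p = 0.04 in limma, exact permutation p = 0.029) and did not pass. It also did not pass without HFD+WBM replicate 1, 3 or 4 (0.59 to 0.64). Its mean signal, 6.40, was within the range of olfactory receptor genes. Col13a1 (-0.05) and Col17a1 (0.40) did not pass, nor did the network-forming Col8a1, Col8a2 and Col10a1 (0.23 to 0.53) or Col7a1, Col26a1 and Col28a1 (0.18 to 0.33).

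**Figure D2:**
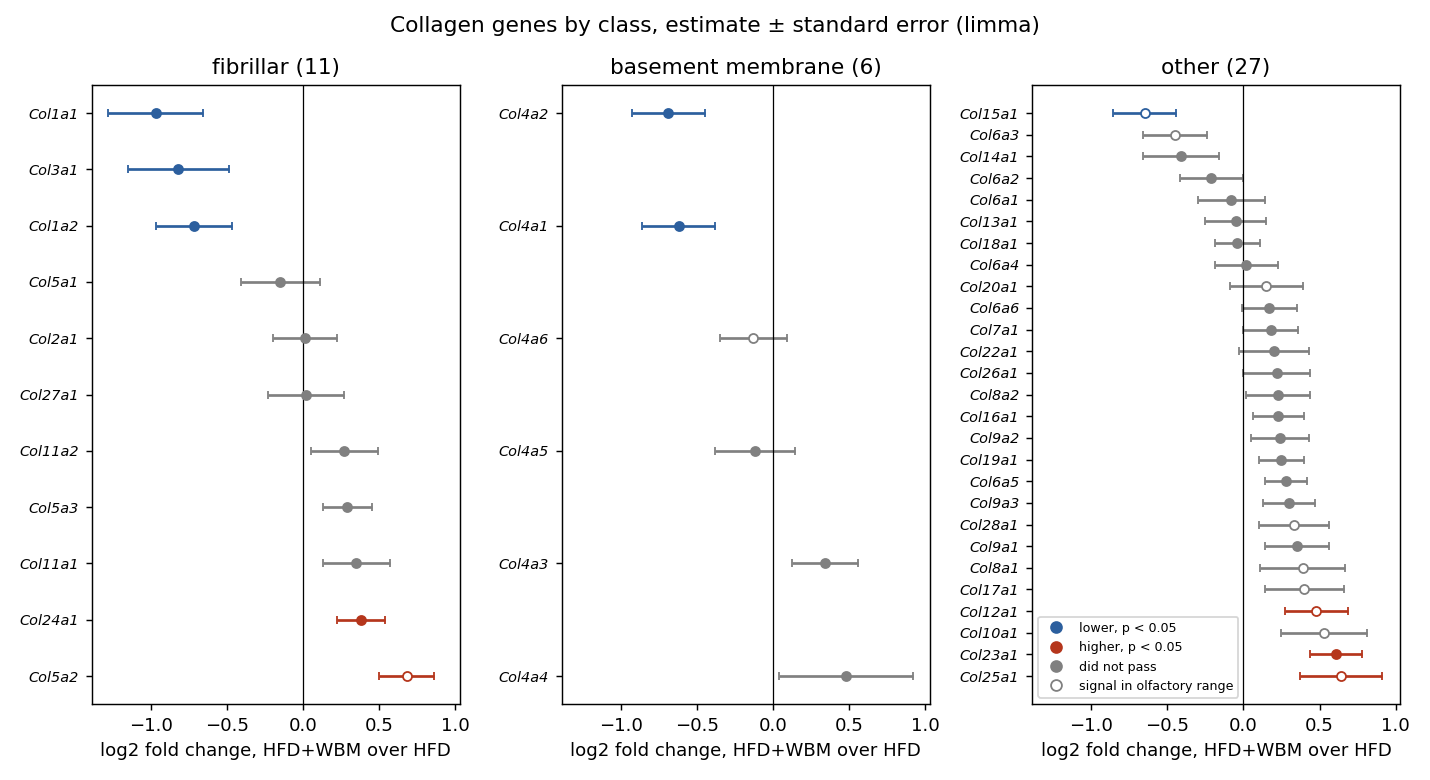
Log2 fold change of all 44 collagen genes, OVX HFD+WBM over OVX HFD, with its standard error from limma, in 3 classes. Blue and red points have p under 0.05 before adjustment, grey points did not pass, and open points have a mean signal at or below 7.16, the 95th percentile of olfactory receptor genes; the 6 blue points are types I, III, IV (alpha 1 and 2) and XV, and 29 of the 44 estimates lie to the right of 0.

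Over all 44 collagens, 15 estimates lay below 0 and 29 above, with a median of 0.21, against 0.01 for all genes and 0.07 for olfactory receptor genes. Without HFD replicate 3, the medians of all genes and of olfactory receptor genes were both -0.04. The fibrillar, basement membrane and other collagens then had medians of 0.01, -0.19 and 0.15, in place of 0.02, -0.13 and 0.23. Among the 33 collagens above the olfactory receptor range, 5 were lower (15.2%, against 6.9% of all genes) and 2 were higher (6.06%, against 4.85%), with a median of 0.18. Among the 11 within it, 1 was lower (9.09%) and 3 were higher (27.3%), with a median of 0.39. The mean over both diets decided the side, so this split is no check of the calls. With HFD+WBM alone, the means of Col1a1 (6.86) and Col4a2 (7.02) lay below 7.16, as did that of Col23a1 with HFD alone (7.02). Conversely, Col5a2 (7.41) and Col12a1 (7.23) lay above it with HFD+WBM alone, and Col15a1 (7.22) with HFD alone. The groups did not overlap for 6 of the 44 (8.23% of all genes were so), of which 3 were lower in every HFD+WBM mouse (5.02% of all genes were) and 3 were higher in every one (3.21% of all genes). HFD+WBM replicate 3 had the lowest value of all 8 mice for each of the 6 lower collagens, HFD replicate 4 the highest of its group for 5 of them, and HFD+WBM replicate 1 the highest of its group for 5. The mean of these 6 genes was 7.86, 7.78, 8.14 and 8.49 in the HFD mice and 7.73, 7.22, 6.85 and 7.50 in the HFD+WBM mice, given as a description since the genes were chosen by this comparison.
Of 8 pairs of collagens that are next to each other among protein-coding genes in GRCm38.p6, Col4a1 and Col4a2 were both lower, while of Col3a1 and Col5a2, neighbours on chromosome 1, the former was lower and the latter higher. The genes of the other 6 pairs did not pass.

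**Figure D3:**
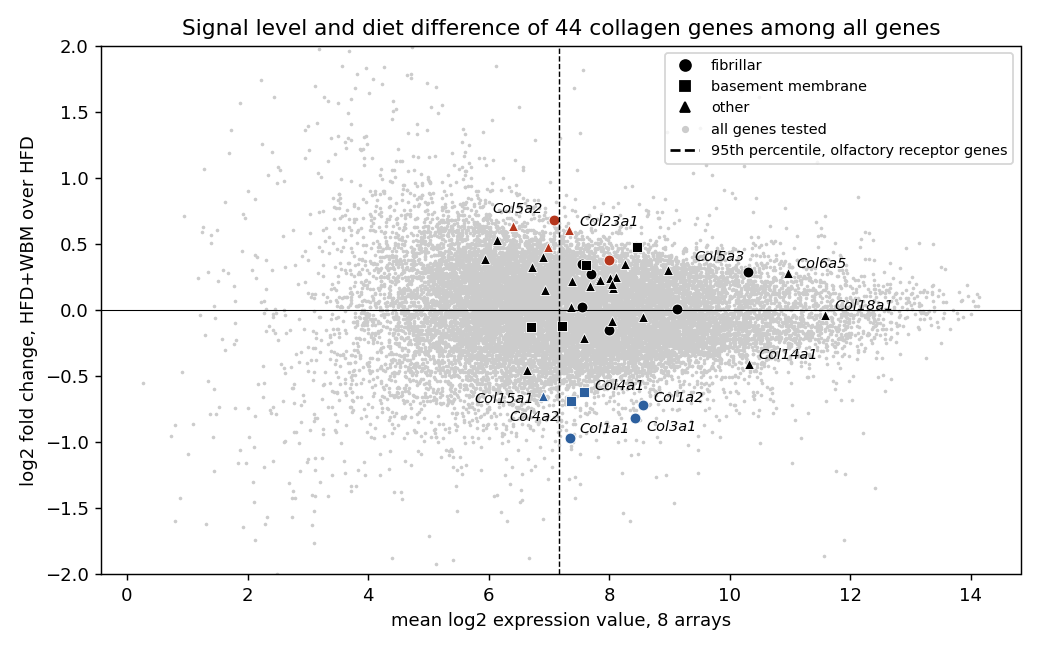
Mean log2 expression value over the 8 arrays against the log2 fold change, HFD+WBM over HFD, for 44 collagen genes (circles fibrillar, squares basement membrane, triangles other; blue lower and red higher at p under 0.05 before adjustment, black not passed) among all genes tested (light grey; 13 genes beyond 2 in either direction are not drawn). The dashed line is the 95th percentile of olfactory receptor genes, 7.16; Col18a1, Col6a5, Col14a1 and Col5a3 have the brightest rows and none of them passed, and Col1a1 has the largest difference at a mean of 7.35.

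Genes that fold and modify collagen chains in the endoplasmic reticulum were read next. Beside the counts of each list, 6.9% of all genes tested were lower and 4.85% were higher. The lists on collagen handling, from folding to regulators, had 0% to 16.7% of their genes lower and 0% to 8.33% higher. Of 18 measured, Fkbp14, a prolyl isomerase of collagen folding, was lower and Mia3, which loads procollagen into transport carriers, was higher, and 16 did not pass (median -0.15). Fkbp14 had log2 values of 6.18, 6.98, 6.65 and 7.15 with HFD and of 5.24, 6.05, 5.89 and 5.74 with HFD+WBM. It was 2.01-fold lower on average and without overlap (p = 0.0027 in limma, exact permutation p = 0.029). Its mean signal, 6.23, was within the range of olfactory receptor genes. Mia3 had 10.50 to 10.95 with HFD and 10.75 to 11.33 with HFD+WBM (log2 fold change 0.43). Serpinh1, the collagen chaperone HSP47, had -0.45 (standard error 0.21, exact permutation p = 0.114), and P4ha1, a catalytic subunit of prolyl hydroxylase, 0.13 (standard error 0.26).
Of 12 measured genes of procollagen processing and crosslinking, 2 were lower, 1 was higher and 9 did not pass (median 0.01). Pcolce and Pcolce2, which enhance the removal of the procollagen C-terminal propeptide, were the lower ones. Pcolce had log2 values of 7.38, 7.85, 8.17 and 8.21 with HFD and of 7.51, 7.16, 7.14 and 7.26 with HFD+WBM (1.55-fold lower, p = 0.012 in limma, exact permutation p = 0.057), with HFD replicate 1 among the HFD+WBM mice. Pcolce2 had 6.87 to 7.45 and 6.06 to 6.94 (1.68-fold lower, p = 0.0085 in limma, exact permutation p = 0.057), at a mean of 6.74 within the olfactory receptor range. Adamts3, a procollagen N-proteinase, was 1.31-fold higher, and Lox, the crosslinking lysyl oxidase, was at 0.13 on the log2 scale (standard error 0.38).

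Of 15 genes of collagen breakdown and its inhibitors, Mmp16, a membrane-bound metalloproteinase, was 1.29-fold higher, none was lower and 14 did not pass (median -0.07). The collagenase gene Mmp13 was at 0.09 on the log2 scale (standard error 0.22) and Timp1, the inhibitor that rises in fibrosis, 0.11 (standard error 0.20). None of the 9 collagen receptors measured passed (median -0.11). Of 15 fibril-bound proteoglycans and glycoproteins, Lum, which encodes the fibril-spacing proteoglycan lumican, was 1.51-fold lower (p = 0.04 in limma, exact permutation p = 0.057). The mean signal of Lum, 6.80, was within the olfactory receptor range. In this list 13 of the 15 estimates lay below 0 (median -0.23). Of 14 basement membrane partners, Lama2, a laminin chain, was 2.28-fold lower and Nid1, which links laminin to type IV collagen, was 1.39-fold lower, and 12 did not pass (median -0.13). Lama2 had log2 values of 5.05, 5.68, 6.41 and 6.86 with HFD and of 5.49, 3.97, 5.05 and 4.75 with HFD+WBM, at a mean within the olfactory receptor range. Of 15 genes of TGF beta and other collagen regulators, Pdgfa, a growth factor for stellate cells, was 1.41-fold lower without overlap (p = 0.015 in limma, exact permutation p = 0.029), 14 did not pass, and Tgfb1 was at -0.14 on the log2 scale (standard error 0.20).

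Markers of the cells that make collagen and of the other liver cells were read beside these values, and their part in the collagen differences was not tested. The share lower was 8.33% for stellate cells, 30% for sinusoidal endothelium and 90.9% for Kupffer cells and macrophages, against 6.9% of all genes tested. The share higher was 8.33% for stellate cells, against 4.85% of all genes. Of 12 stellate cell markers, Lrat, which stores retinol as ester, was 1.47-fold lower, Hand2, a transcription factor of stellate cells, was 1.51-fold higher, and 10 did not pass (median 0.04). The summed level of the list (log2 of the sum of linear values) was 12.29 to 12.65 with HFD and 12.37 to 12.59 with HFD+WBM. None of 6 myofibroblast and smooth muscle markers passed, with summed levels of 9.42 to 10.12 and 9.56 to 9.74, and Acta2, the alpha smooth muscle actin gene, was at -0.24 on the log2 scale (standard error 0.27). Cnn1 of this list had 0.03 in HFD replicate 3, the lowest value of any marker. None of 8 portal fibroblast and mesothelial markers passed (summed 9.77 to 10.27 and 9.92 to 10.22).
Of 10 sinusoidal endothelial markers, Lyve1, Cdh5 and Tek were lower and all 10 estimates lay below 0 (median -0.27), with summed levels of 12.56 to 13.13 with HFD and 12.30 to 12.89 with HFD+WBM. Lyve1, a hyaluronan receptor, had 7.75, 8.67, 8.96 and 9.21 with HFD and 7.56 to 7.71 with HFD+WBM. Of 11 Kupffer cell and macrophage markers, 10 were lower (median -0.67), with summed levels of 13.06 to 13.59 and 12.49 to 13.02 that did not overlap, and C1qc, C1qa and C1qb, subunits of complement C1q, and the lysosomal Cd68 had the smallest p. The mean of the macrophage list was 9.92, 9.18, 9.84 and 9.56 in HFD replicates 1 to 4 and 8.76, 9.18, 8.69 and 9.08 in HFD+WBM replicates 1 to 4. HFD replicate 2 was the lowest HFD mouse and HFD+WBM replicate 3 the lowest HFD+WBM mouse both for this list and for the mean of the 6 lower collagens, while the highest mice were HFD replicate 1 and HFD+WBM replicate 2 for the list and HFD replicate 4 and HFD+WBM replicate 1 for the collagens. None of 5 cholangiocyte markers (summed 9.51 to 9.84 and 9.54 to 9.85), 9 hepatocyte markers (16.63 to 16.77 and 16.70 to 16.81) or 4 adipocyte markers (8.42 to 8.95 and 8.36 to 8.65) passed. No marker of these lists other than Cnn1 came near 0.

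**Figure D4:**
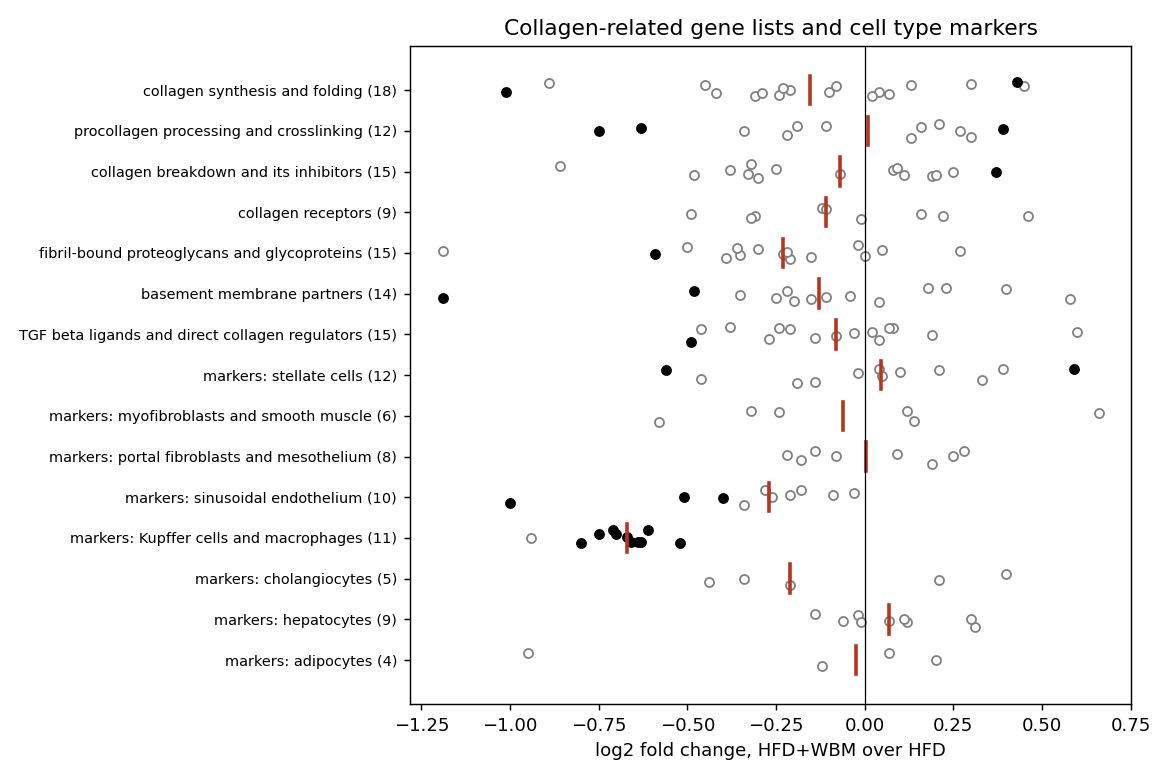
Log2 fold change, HFD+WBM over HFD, of each measured gene of the lists on collagen handling and of the cell type markers, 1 point per gene, with the number of genes in brackets. Filled points have p under 0.05 before adjustment in limma, and red bars are the medians, which lie furthest from 0 for Kupffer cells and macrophages (-0.67), sinusoidal endothelium (-0.27) and fibril-bound proteoglycans and glycoproteins (-0.23).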

How the data were processed

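On each of 8 arrays the liver RNA of a single OVX mouse was hybridized, and titles gave the groups. The authors' log2 values came from background correction, normalization and IterPLIER summary of the probe sets (Power Tools 1.8.6 by Affymetrix, which the submitters' processing notes also name), and 28944 rows between 0.0002 and 14.78 were used. The sources used here do not say which offset went before the log, how arrays were normalized to each other or which genome build the rows follow, so low values carry no background limit. From the platform annotation, 21789 rows name 1 gene, 1621 several and 5534 none, and gene numbers matched GRCm38.p6 names for 21698.

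A linear model with diet alone was fitted to all 19938 genes and moderated (lmFit, eBayes; limma 3.58.1, R 4.3.3), p-values were adjusted by Benjamini and Hochberg, and the code was tested on simulated data. Exact permutation tests were two-sided over all divisions of the 8 mice (scipy 1.17.1). The limma p-values set the diet difference against the spread between mice within a diet, moderated over all genes. The number of arrays limits the precision. The thresholds, p under 0.05 and 2-fold, are the study's. Named by rule, with values of each mouse, were collagens with p under 0.05 and the chains of types I, III, IV (alpha 1 and 2), V, VI (alpha 1 to 3), XIV, XV and XVIII. Also named, some of them with values by mouse, were up to 4 genes with the smallest p under 0.05 in each other list, and Lox, Serpinh1, P4ha1, Timp1, Mmp13, Tgfb1, Acta2 and Lrat. Alb and Cnn1 were chosen after their values were seen. The members and lists were chosen with earlier results of these data known. Fkbp10, Adamts2, Loxl2, Mmp15, Gp6, Spp1, Tf and Cfd were not analysed here. Alternatives were median centring, quantile normalization, offsets of 16 and 64 before the log, filters on low values, other rows of a gene, a signal-dependent prior variance, array weights, the methods' t-test, a replicate block, 1.5-fold as threshold, and each mouse left out in turn.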

Additional observations from a re-analysis of the deposited data

Results flagged for a closer look

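Of 88 groups of 4 values examined (44 collagens in each diet), 5 held a mouse far from its 3 diet mates by Dixon's criterion, where chance flags about 1 in 20 groups. For Col4a4 it was HFD replicate 3, at 6.70 (log2 value) against 8.63 to 8.86. The same mouse had 11.08 for Col6a5, against 10.71 to 10.76. For Col25a1, HFD replicate 4 had 5.22 against 6.27 to 6.44. For Col9a1, HFD+WBM replicate 3 had 8.65 against 8.36 to 8.38, and for Col9a3, HFD+WBM replicate 4 had 8.92 against 9.19 to 9.21.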

How the results depend on the processing

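The calls of Col1a1, Col1a2, Col4a2 and Col23a1 at p under 0.05 held in all 19 alternatives. Those of Col15a1 and Col5a2 held in the 18 in which they were tested, as both fall outside the 50% of genes with the highest mean. The alternatives on other rows of a gene could hardly differ here, since each of these genes has a single row and its values stayed the same. Leaving out each mouse gave 4 to 7 lower collagens, 2 to 7 higher collagens, 0 or 1 gene past 2-fold (Col1a1, at 1.17, 1.16 and 1.04 lower on the log2 scale without HFD+WBM replicate 1, HFD replicate 2 and HFD replicate 1) and a fibrillar median of 0.01 to 0.20. Shares of all genes lower or higher at p under 0.05 are not given here for any alternative. The counts of collagens therefore cannot show whether collagens moved apart from the other genes. Higher collagens were 2 among the 50% brightest genes and 2 among collagens above the olfactory receptor range. Both filters use the mean over both diets, so a difference between the diets can itself decide whether a gene is kept. With 1.5-fold in place of 2-fold, 9 collagens passed. The share of all genes past 1.5-fold is not given here, so this count has no reference. No collagen had an adjusted p under 0.05 in any alternative; with a signal-dependent prior variance, 139 genes (0.697%) did. Among the 18 collagens named by rule, for which estimates were recomputed here, those of 3 that did not pass changed sign: Col5a1 (0.01 without HFD replicate 3, 0.04 without HFD+WBM replicate 2), Col18a1 (0.01 without HFD replicate 4, 0.06 without HFD+WBM replicate 2) and Col6a1 (0.00 without HFD replicate 4, 0.08 without HFD+WBM replicate 3). With each mouse left out they ranged from -0.33 to 0.04, from -0.10 to 0.06 and from -0.23 to 0.08. The cause of these changes was not tested. The labels give no pairing of the mice by replicate number. Same-numbered mice correlated at -0.12 to -0.02 in their deviations from the diet means, where all pairs across the diets had -0.20 to 0.19. Such deviations balance out within each diet, so these values cannot exclude a pairing. With the replicate block 6 collagens were lower and 2 higher. A t-test with equal variances gave 4 lower and 4 higher.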
